A study of Mus musculus with 10 samples.

Results

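Vegfa, Slc2a1 and Tgfb1 are 3 mouse genes of the response to low oxygen and of growth factor signalling, followed here on 10 arrays that compared tumour-associated macrophages with peritoneal macrophages. The 3 genes were chosen with earlier results of these data known. Their features were taken by symbol, as those to which the platform annotation gives that single symbol. This gave 4 of the 9596 features and 3 of the 6795 named genes. Vegfa (Entrez 22339) had the features 648089_1 and 648620_1, Slc2a1 (Entrez 20525) had 650207_1 and Tgfb1 (Entrez 21803) had 642750_1. All 4 features had a value on all 10 arrays.

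Cells short of oxygen stop degrading the hypoxia-inducible factors (HIF), transcription factors that pair with Arnt and bind a short core motif in the DNA. Vegfa, a secreted factor that makes endothelial cells grow and sprout, and Slc2a1, which encodes the facilitative glucose transporter of many activated cells, are among their best known targets. Macrophages that gather in the poorly perfused areas of tumours are known as a source of Vegfa. Tgfb1 encodes transforming growth factor beta, a ligand that signals through Smad proteins and restrains macrophage and lymphocyte activation. It is not primarily a hypoxia gene and is regulated in large part after secretion, by release from a latent complex.

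The cells were adherent cells from C57/6N black mice aged 8 weeks, kept in culture. Tumour-associated macrophages (TAM) were taken 3 weeks after a tumour had been implanted, and peritoneal exudate cells (PEC), the source of peritoneal macrophages here, came from mice at the same stage on the arrays that set TAM against PEC. Cells were left untreated or were given 100 ng/mL of lipopolysaccharide (LPS), a bacterial wall component that activates macrophages, for 4 hours. The sources used here do not give the tumour type, the number of mice per pool or the dyes. Each array is a 2-colour hybridisation of RNA from 2 conditions. TAM with LPS were set against PEC with LPS on 2 arrays (TAM1 and TAM7), untreated TAM against untreated PEC on 4 (TAM-8, TAM-3, TAM-2R and TAM-b), TAM with LPS against untreated TAM on 2 (TAM-trial and TAM-16), and PEC with LPS against untreated PEC on 2 (PEC1 and PEC2). Array names identify hybridisations, and the labels do not tie them to different mice or dishes. The p-values thus measure a spread between arrays that may be technical.

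Every value below is a log2 ratio of the first-named over the second-named condition, in which 1 unit is a doubling, and not a level. Values were read as channel 2 over channel 1. The channels of TAM-2R and TAM1 were exchanged in the labels, and their values were turned in sign. Because the dyes are not named, this reading is likely and not certain. Its basis is that Il1b, Tnf, Nos2, Cd40, Ccl3, Ccl4, Ccl5 and Cxcl10, which macrophages are known to raise with LPS, were above 0 on both arrays of LPS in PEC (8 of 8 on each, medians 3.45 on PEC1 and 4.99 on PEC2). On the arrays of LPS in TAM, 7 of 8 were above 0 on TAM-trial (median 1.68, with Il1b at -0.23) and 8 of 8 on TAM-16 (median 3.64). None of these LPS arrays had exchanged channels in the labels, so they cannot test the turning of TAM-2R and TAM1. The sources used here do not state whether the deposited values of TAM-2R and TAM1 had already been turned. The arrays of a group correlated weakly over all features (r from 0.036 to 0.329), and they came from 3 prints, v9p2 (TAM-8, TAM7 and TAM-trial), v1p1 (PEC1) and v3p6 (the other 6). In bulk RNA, fewer cells of a type and less RNA of a gene per cell cannot be told apart.

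The promoter windows of the 3 genes are shown because the HIF core motif was looked for there. They are the 250 bases before the annotated start, from RefSeq on GRCm38.p6, each written 5 prime to 3 prime on the gene's own strand. The motif was searched as ACGTG and as GCGTG on both strands, and capitals mark the matches, so a match on the opposite strand reads CACGT or CACGC. The Slc2a1 window lies at chr4:119108495-119108744 (plus strand). Vegfa has 2 annotated starts, with windows at chr17:46032378-46032627 and chr17:46025164-46025413 (minus strand). The Tgfb1 window lies at chr7:25686752-25687001 (plus strand).
Slc2a1: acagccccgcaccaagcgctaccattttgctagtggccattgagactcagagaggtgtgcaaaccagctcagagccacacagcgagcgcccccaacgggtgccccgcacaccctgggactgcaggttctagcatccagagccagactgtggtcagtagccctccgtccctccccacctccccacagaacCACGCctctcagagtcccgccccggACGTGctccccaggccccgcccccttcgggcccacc
Vegfa, start 1: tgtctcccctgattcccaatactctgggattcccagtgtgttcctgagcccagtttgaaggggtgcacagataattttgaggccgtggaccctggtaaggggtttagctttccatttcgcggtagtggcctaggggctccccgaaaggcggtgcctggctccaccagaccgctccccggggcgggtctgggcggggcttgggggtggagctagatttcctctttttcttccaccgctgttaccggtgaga
Vegfa, start 2: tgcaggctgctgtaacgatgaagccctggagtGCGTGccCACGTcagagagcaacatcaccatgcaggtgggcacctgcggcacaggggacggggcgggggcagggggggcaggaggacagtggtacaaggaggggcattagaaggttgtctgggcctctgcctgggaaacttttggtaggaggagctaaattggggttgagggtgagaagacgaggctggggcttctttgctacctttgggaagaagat
Tgfb1: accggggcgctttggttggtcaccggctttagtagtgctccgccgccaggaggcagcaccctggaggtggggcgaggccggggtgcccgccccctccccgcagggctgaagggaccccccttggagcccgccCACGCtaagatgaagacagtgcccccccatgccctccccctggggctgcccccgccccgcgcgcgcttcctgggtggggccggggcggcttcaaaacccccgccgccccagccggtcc
The Slc2a1 window held 2 matches, GCGTG on the opposite strand 61 bases before the start and ACGTG on the gene's strand 36 bases before it. The window of Vegfa start 1 held 0 matches and that of start 2 held 2, at 218 and 211 bases before the start. On the minus strand the start 2 window lies downstream of start 1, so inside the gene. Both its matches fall in bases that can be read as protein-coding without a stop, as in an exon of the longer form. They are thus not shown to lie in a promoter. The Tgfb1 window held 1, at 118 bases before the start. Such short motifs are common, since 38.6% of 32851 windows of the same length held at least 1 of the pair (16.6% ACGTG and 28.2% GCGTG). A match describes these letters only, and 0 matches say only that the letters are not in this window.

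Slc2a1 was lower in TAM than in PEC on all 6 arrays that set them against each other, with and without LPS. With LPS its log2 ratio was -2.73 on TAM1 and -2.14 on TAM7. Without LPS it was -2.26 on TAM-b, -2.35 on TAM-2R, -2.14 on TAM-3 and -1.76 on TAM-8. The 6 values lie within about 1 log2 unit of each other, far from 0, although TAM1 and TAM-2R had their channels exchanged, so that on the deposited scale these stand at 2.73 and 2.35 while the other 4 are negative. Among all 8905 genes and unnamed features tested, 4.97% were below 0 on all 6 arrays.

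**Figure D1:**
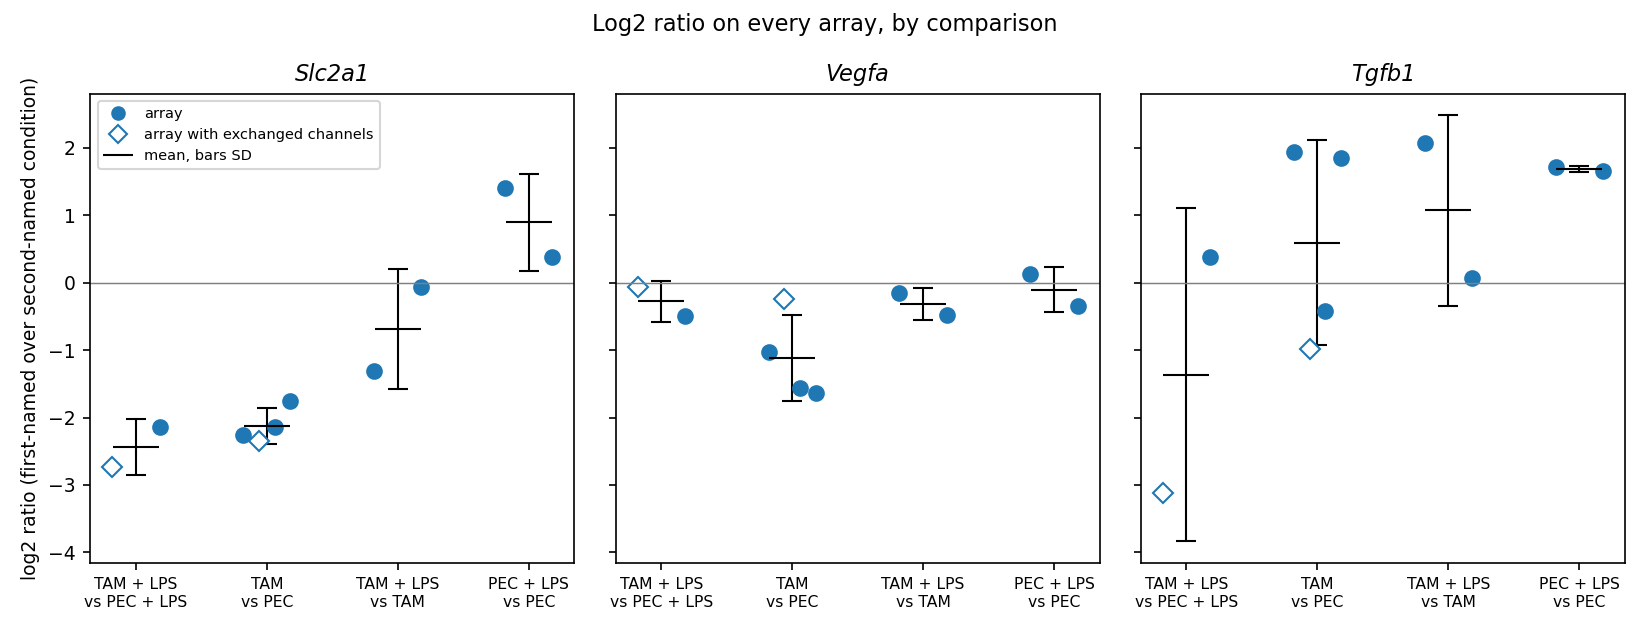
Log2 ratio (vertical axis, first-named over second-named condition) of Slc2a1, Vegfa (mean of 2 features) and Tgfb1 on each of the 10 arrays, by comparison. Points are arrays, open diamonds the arrays with exchanged channels after turning, and black lines the mean with bars of 1 SD. Slc2a1 lies between -2.73 and -1.76 on all 6 arrays of TAM against PEC, while Tgfb1 spans from -3.11 to 1.94 on them.

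In untreated cells Slc2a1 was 4.37-fold lower in TAM (-2.13 ± 0.26, SD, n = 4, 95% interval -2.85 to -1.41) and passed the test over all genes (adjusted p = 0.0331). In that comparison 0.46% of all genes and features passed, and 0.7% had a lower mean. As a single feature, without averaging features of other genes, it passed as well (adjusted p = 0.0385, 0.406% of 9596 features passing). With LPS it was 5.41-fold lower in TAM (-2.44 ± 0.42, SD, n = 2, interval -3.46 to -1.42), which did not pass (adjusted p = 0.0887, with 0.0674% passing). The difference between TAM and PEC was not distinguishable with and without LPS (difference -0.31, interval -1.56 to 0.94, adjusted p = 0.937, with 0% of all genes passing, 623 at an unadjusted p under 0.05). The mean of both comparisons, a contrast chosen after the data were seen, was 4.86-fold lower in TAM (-2.28, adjusted p = 0.00576, with 1.31% passing).

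The size of this difference was steadier than its call. When any 1 of the 4 untreated arrays of TAM against PEC was left out, the untreated mean of Slc2a1 stayed between -2.25 and -2.05. Leaving out an array of another comparison cannot move this mean, because a mean uses only its own arrays, but it changes the pooled spread. Over all 10 fits that left out an array, the adjusted p ran from 0.0323 to 0.111. It was under 0.05 in 2 of them, those without TAM-trial and without TAM-16, so leaving out any of the other 8 arrays ended the call. The call was also lost with a term for channel order (-2.23, adjusted p = 0.0605), within print v3p6 (-2.25, 0.641) and with limma's trended and robust variance (-2.13, 0.314). With TAM-2R and TAM1 left unturned the untreated mean was -0.95 (adjusted p = 0.758) and the LPS mean 0.29. For the mean of both comparisons, 9 of the 10 fits that left out an array had an adjusted p under 0.05, and the highest, 0.0891, came without TAM1.

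The median marker of macrophages was below 0 on the same 6 arrays, nearest to it on TAM-3 and TAM-2R. Of 15 listed markers 11 were measured, and their median log2 ratio was -1.49 on TAM1 and -1.62 on TAM7 with LPS, against -1.55 on TAM-b, -0.28 on TAM-2R, -0.05 on TAM-3 and -1.33 on TAM-8 without LPS. Without LPS 10 of the 11 had a mean below 0 and none passed the test in any comparison, and on TAM-2R and TAM-3 there were 5 above and 6 below 0. Cd68, a lysosomal glycoprotein of macrophages, ran from -3.29 on TAM-8 to -0.14 on TAM-3 without LPS. Fcgr1, an Fc receptor, was above 0 on all 4 of these arrays (0.53 to 1.66) and Mrc1, the mannose receptor, was above 0 on both arrays with LPS (0.30 on TAM1 and 1.63 on TAM7). Slc2a1 was at -2.35 and -2.14 on TAM-2R and TAM-3, the arrays on which the marker median was nearest to 0. Log ratios hold no levels, so no marker can be said to be absent, and the part of a different cell make-up in the Slc2a1 difference was not tested.

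After LPS, Slc2a1 lay on opposite sides of 0 in TAM and in PEC, without passing the test in either. In TAM its log2 ratio of LPS over untreated cells was -1.31 on TAM-trial and -0.06 on TAM-16. In PEC it was 1.40 on PEC1 and 0.39 on PEC2. As deposited, both TAM arrays lay below 0 and both PEC arrays above it, though TAM-16 was close to 0. On TAM-16 the median of all features was -0.199, and 57.9% of them were below Slc2a1. The mean was -0.69 in TAM (interval -1.70 to 0.33, adjusted p = 0.866, with 0% of all genes passing and 497 at an unadjusted p under 0.05) and 0.89 in PEC (interval -0.13 to 1.91, adjusted p = 0.687, with 0.0112% passing). The difference between these responses was -1.58 (interval -3.02 to -0.14), with an unadjusted p of 0.0351 from limma and an adjusted p of 0.719 (0% passing, 612 at an unadjusted p under 0.05). The same difference came to -0.95 without TAM-trial, -1.07 without PEC1, -2.08 without PEC2 and -2.21 without TAM-16. It was -0.85 in a fit that joins all arrays. A step described below for Tgfb1 and chosen after the data were seen took off the median of each feature's place in the numbering. After it Slc2a1 was at -0.79 on TAM-trial and 0.35 on TAM-16, so the TAM arrays fell on both sides of 0. PEC1 and PEC2 stayed above 0, at 1.33 and 0.95. The means were then -0.22 in TAM and 1.14 in PEC, and the difference of responses was -1.36 (adjusted p = 0.66 from limma). This difference of responses estimates the same quantity as the change of the TAM and PEC difference with LPS. On the arrays of TAM against PEC that quantity was -0.31, so the 2 are not separate results. Of all genes and features tested, 8.84% were below 0 on both TAM arrays and above 0 on both PEC arrays. All 4 of these arrays had the same channel order, so a channel effect that differs between genes is not balanced in either mean. The median macrophage marker stood at -1.67 on TAM-trial and 0.15 on TAM-16, against 0.83 on PEC1 and 1.08 on PEC2, and its part in the Slc2a1 values was not tested.

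Vegfa was also below 0 on all 6 arrays of TAM against PEC, as were 4.97% of all genes and features. It was closer to 0 with LPS than without. With LPS the mean of its features was -0.06 on TAM1 and -0.49 on TAM7. Without LPS it was -1.03 on TAM-b, -0.24 on TAM-2R, -1.57 on TAM-3 and -1.63 on TAM-8. The values with and without LPS overlap, because TAM-2R lies between TAM1 and TAM7. The untreated mean was 2.17-fold lower in TAM (-1.12 ± 0.64, SD, n = 4, interval -1.82 to -0.41) but did not pass over all genes (unadjusted p = 0.00544 from limma, adjusted p = 0.192), and 10.8% of all genes and features were below 0 on all 4 of these arrays. With LPS the mean was -0.28 ± 0.30 (SD, n = 2, interval -1.27 to 0.72, adjusted p = 1). The difference of 0.84 between the comparison with and without LPS did not pass either (interval -0.38 to 2.06, adjusted p = 0.741), and the mean of both comparisons was -0.70 (interval -1.31 to -0.09, adjusted p = 0.346). TAM-2R and TAM1, the exchanged arrays, were the nearest to 0 in their comparisons.

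Vegfa has a pair of features, and these told much the same. Feature 648089_1 was at -0.04 on TAM1 and -0.51 on TAM7 with LPS, and at -1.65 on TAM-b, -0.22 on TAM-2R, -1.81 on TAM-3 and -1.95 on TAM-8 without. Feature 648620_1 was at -0.09 and -0.48 on TAM1 and TAM7, and at -0.41 on TAM-b, -0.27 on TAM-2R, -1.32 on TAM-3 and -1.31 on TAM-8. Both were below 0 on all 6 arrays, and they were furthest apart on TAM-b, by 1.24. Over the 10 arrays they had the same sign on 8, a median absolute difference of 0.40 and a Pearson r of 0.78. Among the 576 genes with exactly 2 features the median r was 0.08 and 96.2% had a lower r than Vegfa, so the features of most such genes on these arrays did not follow each other. Singly, the untreated means were -1.41 (adjusted p = 0.146) and -0.83 (adjusted p = 0.292).

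**Figure D2:**
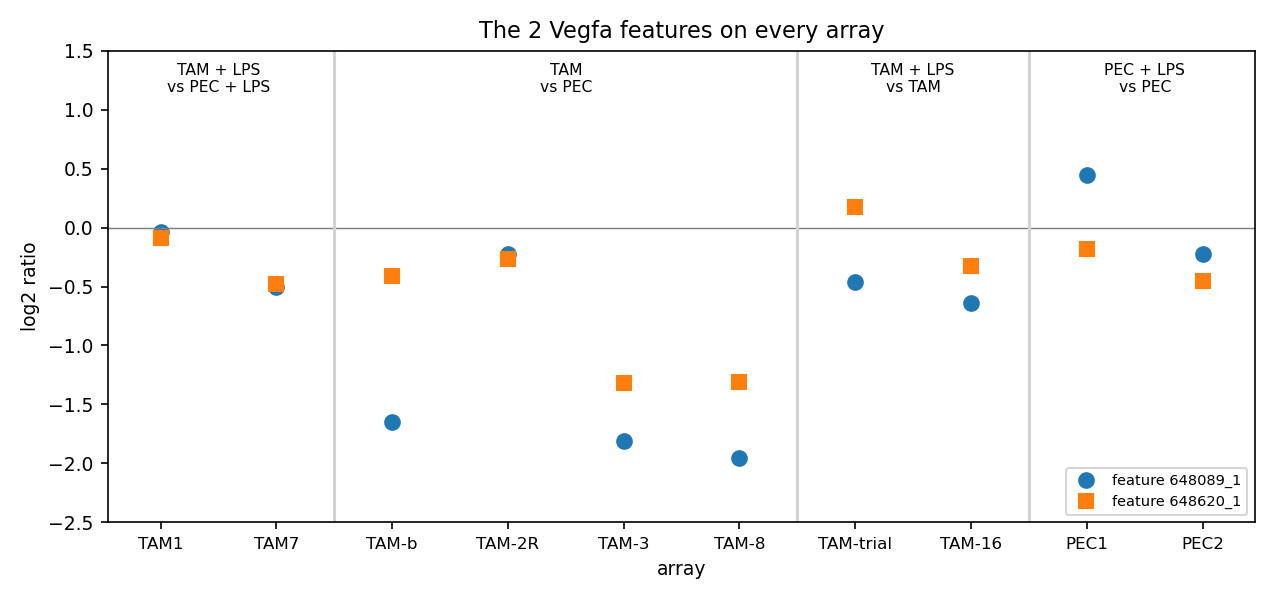
Log2 ratio (vertical axis) of the Vegfa features 648089_1 (circles) and 648620_1 (squares) on the 10 arrays (horizontal axis), in 4 blocks by comparison. Both lie below 0 on the 6 arrays of TAM against PEC, and they part in sign on TAM-trial and PEC1.

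No response of Vegfa to LPS was detectable. In TAM its log2 ratio of LPS over untreated cells was -0.15 on TAM-trial and -0.48 on TAM-16. In PEC it was 0.13 on PEC1 and -0.34 on PEC2. The means were -0.31 in TAM (interval -1.31 to 0.68, adjusted p = 0.947) and -0.11 in PEC (interval -1.10 to 0.89, adjusted p = 0.984). Both means turned sign with a term for channel order, to 0.12 in TAM and 0.33 in PEC. The responses differed by -0.21 (interval -1.62 to 1.20, adjusted p = 0.998).

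Tgfb1 gave no steady direction in TAM against PEC. With LPS its log2 ratio was -3.11 on TAM1 and 0.39 on TAM7. Without LPS it was 1.94 on TAM-b, -0.99 on TAM-2R, -0.42 on TAM-3 and 1.85 on TAM-8. It was below 0 on 3 of the 6 arrays, and both exchanged arrays were among these 3. The means were -1.36 ± 2.47 with LPS (SD, n = 2, interval -3.47 to 0.74, adjusted p = 0.831) and 0.59 ± 1.52 without (SD, n = 4, interval -0.89 to 2.08, adjusted p = 0.688). With the exchanged arrays unturned the LPS mean was 1.75 (adjusted p = 1).

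As deposited, before any turning, Tgfb1 was above 0 on 9 of the 10 arrays, whichever RNA was in channel 2, against 4 of 10 for Slc2a1 and 3 of 10 for Vegfa. A term for channel order added to the fit was 1.33 for Tgfb1 (SE 0.44, unadjusted p = 0.0139 from limma), 0.21 for Slc2a1 and -0.44 for Vegfa. None of these terms passed over all genes (adjusted p = 0.429, 0.899 and 0.683, with 0% of all genes passing and 810 at an unadjusted p under 0.05). Feature numbers run in groups of 96, and the 101 features that share the place of Tgfb1 in such a group had a median of 1.92 on TAM-b, 1.57 on TAM-8, 1.59 on TAM7 and 1.89 on TAM-trial. On TAM-b, TAM-8 and TAM-trial the Tgfb1 value was within 0.28 of that median, whereas on TAM7 Tgfb1 was 1.20 below it. Over the 10 arrays, as a description, the deposited values correlated with the median of the feature's place at r = 0.29 for Tgfb1, 0.45 for Slc2a1, and 0.47 and -0.30 for the Vegfa features 648089_1 and 648620_1. With the place medians taken off, deposited Tgfb1 was still above 0 on 8 of the 10 arrays. After this step, a setting chosen after the data were seen, and with the exchanged arrays turned, Tgfb1 had a mean of -2.13 with LPS (adjusted p = 0.162) and -0.39 without (adjusted p = 0.696), and was below 0 on 4 of the 6 arrays. The same step left Slc2a1 at -2.64 with LPS (adjusted p = 0.0333) and -1.65 without (adjusted p = 0.0373), and Vegfa at -0.32 and -1.03, all of their features below 0 on 6 of 6 arrays.

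**Figure D3:**
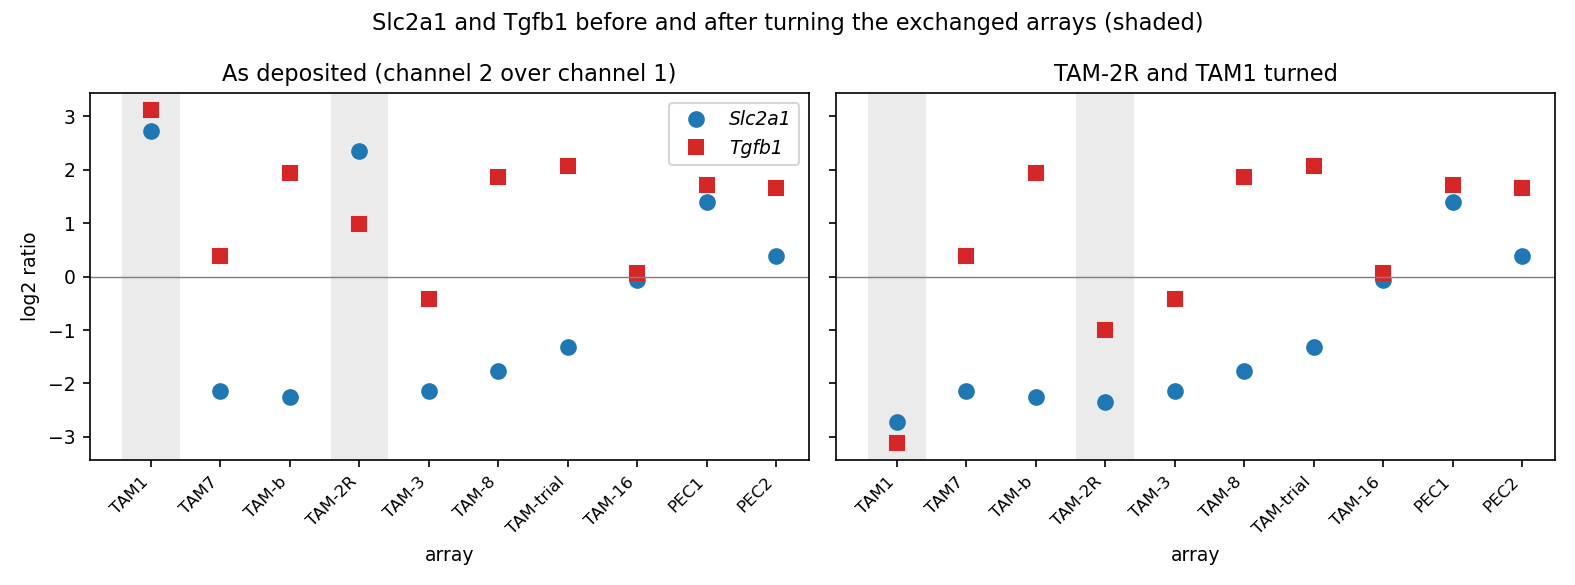
Log2 ratio (vertical axis) of Slc2a1 (circles) and Tgfb1 (squares) on the 10 arrays (horizontal axis), as deposited on the left and with the exchanged arrays TAM-2R and TAM1 (shaded) turned on the right. As deposited, Tgfb1 is above 0 on 9 arrays, while Slc2a1 changes side on the shaded arrays and joins the other arrays of TAM against PEC once turned.

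After LPS, Tgfb1 was above 0 on all 4 arrays and passed the test in neither cell type. In TAM it was 2.08 on TAM-trial and 0.07 on TAM-16. In PEC it was 1.72 on PEC1 and 1.65 on PEC2. The PEC arrays lay close together (mean 1.69 ± 0.05, SD, n = 2, 3.22-fold), yet the interval from the pooled spread ran from -0.42 to 3.79 (adjusted p = 0.755). The TAM mean was 1.07 ± 1.41 (SD, n = 2, interval -1.03 to 3.18, adjusted p = 0.9), and it was -0.26 with the term for channel order. That term, 1.33 for Tgfb1, lowers the PEC mean by the same amount, because all 4 of these arrays had the same channel order. With the place medians taken off, the means were 0.13 in TAM and 0.96 in PEC (adjusted p = 1 and 0.623). The responses of TAM and PEC differed by -0.61 (interval -3.59 to 2.37, adjusted p = 0.998).

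The 4 comparisons close a loop, so the direct ratio of TAM with LPS over PEC with LPS can be set beside the sum of the other 3. For Slc2a1 these were -2.44 and -3.70, for Vegfa -0.28 and -1.33, and for Tgfb1 -1.36 and -0.02. The gaps, 1.27, 1.05 and -1.35, compare with a median absolute gap of 0.76 over all genes and features. The direct and indirect paths put Slc2a1 and Vegfa on the same side, with sizes that disagree by about 1 log2 unit. By the same loop, the change of the TAM and PEC difference with LPS and the difference of the LPS responses estimate 1 quantity. From their separate arrays these were -0.31 and -1.58 for Slc2a1, 0.84 and -0.21 for Vegfa, and -1.96 and -0.61 for Tgfb1. A limma fit that joins all arrays in the loop gave Slc2a1 -2.80 with LPS (adjusted p = 0.00802). In that fit 137 of 8905 genes and features passed with LPS, against 6 in the main fit, where Slc2a1 did not pass. The joined fit treats the loop as closed, although the gap for Slc2a1 was 1.27.

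The genes whose log2 ratios over the 10 arrays were most like those of the 3 were found among 6794 other named genes, as a description. For Slc2a1 they were Sbds, a ribosome maturation factor (r = 0.983), Atp6v1e1, a subunit of the vacuolar proton pump (0.970), and Mdm2, the ubiquitin ligase of p53 (0.967). For Vegfa they were the transcription factor Elf4 (0.885), the glutathione synthesis subunit Gclm (0.863) and catalase, Cat (0.857). For Tgfb1 they were Ccrl2 (0.949), a chemokine receptor-like gene, Fis1 (0.921), a mitochondrial fission protein, and the splicing factor Usp39 (0.910). Among themselves the 3 correlated less, at 0.391 for Vegfa and Slc2a1, 0.488 for Slc2a1 and Tgfb1, and -0.188 for Vegfa and Tgfb1. The arrays share their dyes, prints and RNA types, so these values say nothing of shared control.

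Around Vegfa, 9 of 10 listed VEGF ligands and receptors were measured. None passed in any comparison, and their median in untreated TAM against PEC was 0.07, against -0.02 over all genes and features. Vegfb, a sister ligand, was at 0.38 ± 1.22, Vegfc, the lymphatic growth factor, at -0.01 ± 1.68, and Pgf, placental growth factor, at 1.13 ± 1.35 (SD, n = 4). The receptors Flt1 and Kdr were at 0.11 ± 1.43 and 0.07 ± 0.50 (SD, n = 4). The co-receptor Nrp1 was at -1.52 ± 1.18, below 0 on 3 of 4 arrays (SD, n = 4, adjusted p = 0.21). Of the 9 genes 5 had an untreated mean above 0.

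Of 16 listed regulators of the HIF pathway 7 were measured, and none passed in any comparison. Hif1a, the oxygen-regulated subunit, was at 4.38 on TAM-8 but at -0.54, 0.69 and 0.81 on TAM-b, TAM-2R and TAM-3 (mean 1.34 ± 2.12, SD, n = 4, adjusted p = 0.391). With LPS it was 0.38 on TAM1 and 2.16 on TAM7. The higher value of each comparison came from a v9p2 array. Epas1, the related subunit, and Egln1, a prolyl hydroxylase that marks these factors for decay, had untreated means of -0.29 ± 0.85 and -0.02 ± 0.77 (SD, n = 4).

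Other genes known to rise with hypoxia lay on both sides of 0. Of 30 listed genes, chosen with earlier results of these data known, 17 were measured, with an untreated median of 0.03 and 10 of 17 above 0. A list so chosen cannot be tested for an excess over all genes and features, of which 0.46% passed. Among the 17, 1 passed. This was Bhlhe40, a circadian and hypoxia-induced repressor, which was lower in TAM (-2.06 on TAM-b, -3.51 on TAM-2R, -1.73 on TAM-3 and -1.49 on TAM-8, adjusted p = 0.041). It was under 0.05 in none of the 10 fits that left out an array (adjusted p from 0.0682 to 0.119). Hmox1, haem oxygenase, was at -1.86 ± 1.49 and below 0 on 4 of 4 arrays, and P4ha1, a collagen prolyl hydroxylase subunit, at -0.58 ± 0.68 (SD, n = 4, adjusted p = 0.214 and 0.424). In TAM against PEC with LPS, Bhlhe40 was at -1.05 on TAM1 and -0.27 on TAM7 and did not pass. After LPS the median of this list was -0.15 in TAM and 0.47 in PEC, with 7 and 14 of the 17 above 0, against medians of -0.13 in TAM and -0.04 in PEC over all genes and features, so the TAM value lay close to that of all genes.

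**Figure D4:**
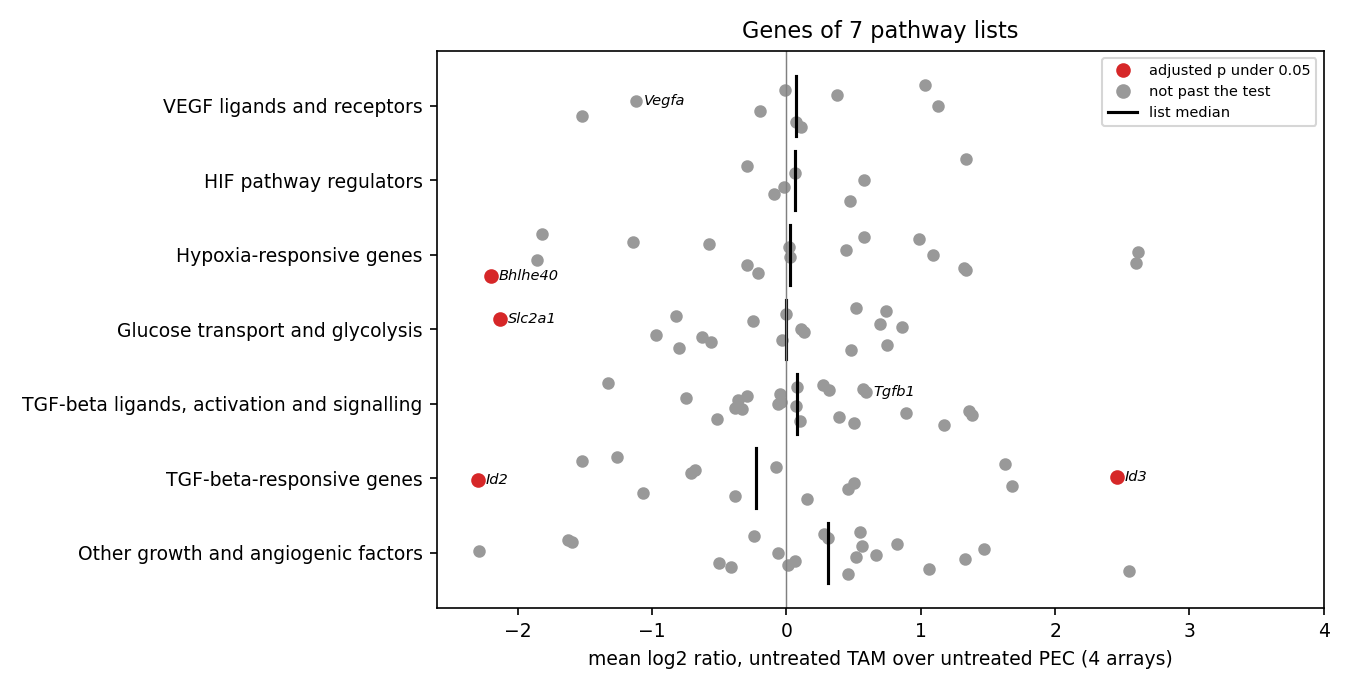
Mean log2 ratio of untreated TAM over untreated PEC (horizontal axis, 4 arrays) of each measured gene in 7 pathway lists (rows). Red points passed the test over all genes, grey points did not, and black lines are list medians. Slc2a1, Bhlhe40 and Id2 passed on the lower side and Id3 on the higher side, while the list medians lie between -0.23 and 0.31.

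The enzymes that use the glucose imported by Slc2a1 lay on both sides of 0 in untreated TAM against PEC. Of 32 listed genes of glucose transport and glycolysis 17 were measured, their untreated median was 0.00, and Slc2a1 was the 1 member to pass. Aldoa, aldolase, was above 0 on 4 of 4 arrays (0.48 ± 0.30), as was Pgk1, phosphoglycerate kinase (0.86 ± 0.56), and Ldha, lactate dehydrogenase, was at -0.03 ± 0.59 (SD, n = 4, adjusted p = 0.476, 0.356 and 0.976). The medians after LPS were -0.35 in TAM, with 4 of 17 above 0, and 0.39 in PEC, with 10 of 17 above 0, against -0.13 and -0.04 over all genes and features. By array the list median was -0.39 on TAM-trial and -0.09 on TAM-16, against 0.12 on PEC1 and 0.37 on PEC2, so on TAM-16 it was close to 0.

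Of the 16 measured glycolysis and transport genes other than Slc2a1, 4 (Aldoa, Ldha, Tpi1 and Pkm) also lay below 0 on both TAM arrays and above 0 on both PEC arrays after LPS, and none of these differences passed the test. Ldha was at -1.26 and -0.11 on TAM-trial and TAM-16, against 1.75 and 1.30 on PEC1 and PEC2. Aldoa was at -0.71 and -0.33 on the TAM arrays, against 0.93 and 0.90 on the PEC arrays. Pkm, pyruvate kinase, was near 0 in TAM, between -0.07 and -0.02, against 0.80 to 0.83 in PEC. On TAM-16 the values of Ldha and Pkm lay above the median of all features, -0.199. Pgk1 was on both sides of 0 in TAM, at -1.85 on TAM-trial and 0.39 on TAM-16, against 1.64 and 0.95 on PEC1 and PEC2. The share of all genes and features with opposite sides on these 4 arrays was 8.84%. Over the 7 pathway lists together it was 21 of 108 different genes (19.4%), and among the 11 measured macrophage markers it was 4, Cd68, Fcgr1, Cd163 and Marco. In each of the other marker lists it was 0. The lists were chosen with earlier results of these data known, so these shares do not test for an excess. The adjusted p of the difference between the responses was 0.719 for both Ldha and Aldoa.

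**Figure D5:**
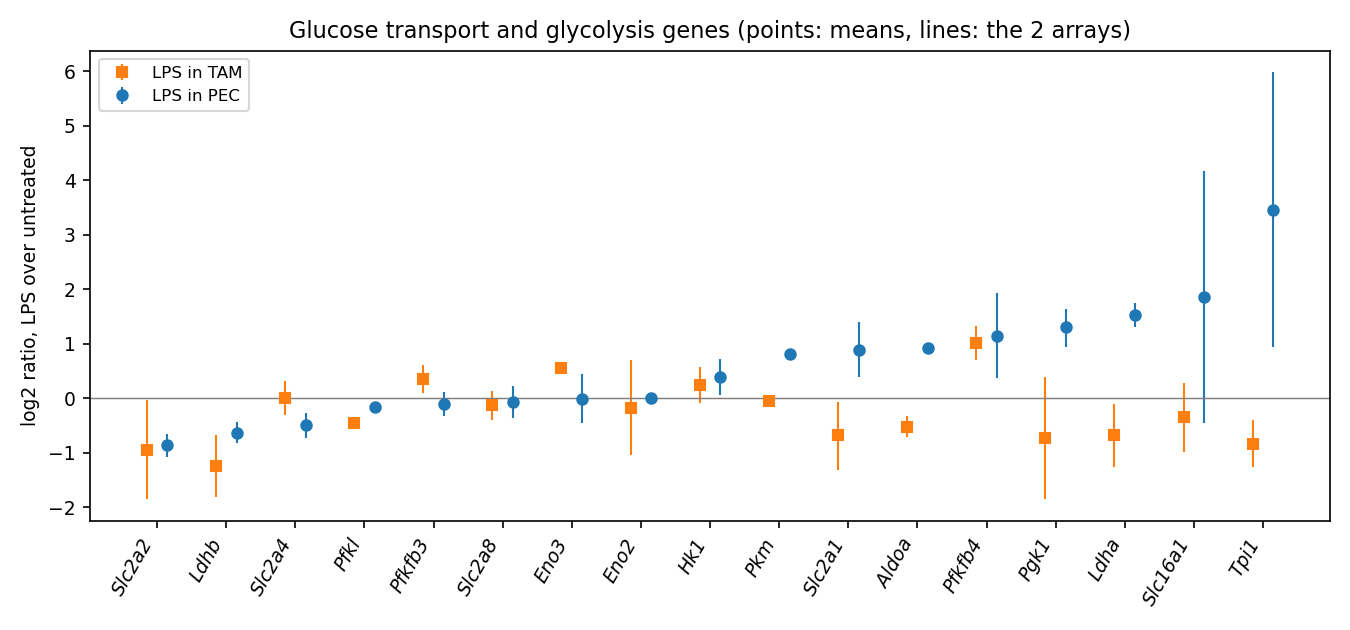
Log2 ratio of LPS over untreated cells (vertical axis) for the 17 measured genes of glucose transport and glycolysis (horizontal axis, ordered by the PEC mean), in TAM (squares) and PEC (circles). Points are means and lines join the 2 arrays. Slc2a1, Aldoa and Ldha lie below 0 in TAM and above 0 in PEC on every array.

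Around Tgfb1, 23 of 34 listed ligands, activators and signalling components were measured, and none passed in any comparison (untreated median 0.08). Tgfb2 and Tgfb3, the sister ligands, were at 0.32 ± 0.69 and 0.57 ± 1.93, the receptor Tgfbr2 at 0.08 ± 0.37, and the mediators Smad2 and Smad3 at -0.38 ± 0.54 and 0.07 ± 2.92 (SD, n = 4). The shared partner Smad4 was at -0.06 ± 0.63 and the inhibitor Smad7 at -0.36 ± 0.36 (SD, n = 4). Thbs1, thrombospondin, which releases latent Tgfb1, was below 0 on all 6 arrays of TAM against PEC, with means of -1.33 ± 0.25 with LPS (SD, n = 2) and -1.33 ± 0.75 without (SD, n = 4), at adjusted p = 0.418 and 0.142. Of all genes and features, 4.97% were below 0 on all 6 of these arrays.

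Of 19 listed genes that respond to Tgfb1, 14 were measured, and 2 passed in untreated cells, in opposite directions. Of all genes and features 0.46% passed. The list was chosen with earlier results of these data known, so these shares do not test it for an excess. Id2 and Id3 encode inhibitors of DNA binding that are regulated by Smad signalling. Id2 was lower in TAM, at -2.40 on TAM-b, -2.09 on TAM-2R, -1.65 on TAM-3 and -3.07 on TAM-8 (mean -2.30, adjusted p = 0.0412). Id3 was higher in TAM, at 1.93, 3.55, 2.84 and 1.51 on the same arrays (mean 2.46, adjusted p = 0.0379). Left-out arrays put the adjusted p of Id2 between 0.0285 and 0.148, with 2 of 10 under 0.05 (without TAM-trial or TAM-16), and that of Id3 between 0.0644 and 0.131. In TAM against PEC with LPS, Id2 was at -2.63 on TAM1 and -2.74 on TAM7, Id3 was at 0.83 and -0.07, and neither passed. Tgfbi, a matrix protein named for its induction by Tgfb1, was above 0 on all 6 arrays, with means of 2.90 ± 0.41 with LPS (SD, n = 2) and 1.63 ± 0.82 without (SD, n = 4), and did not pass (adjusted p = 0.101 and 0.139). The share of all genes and features above 0 on all 6 arrays was not computed.

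Other growth and angiogenic factors varied widely. Of 24 listed genes 21 were measured, none passed in any comparison, and the untreated median was 0.31 with 14 of 21 above 0. The platelet-derived growth factor chains Pdgfa and Pdgfb were below 0 on all 6 arrays of TAM against PEC, as were 4.97% of all genes and features. Pdgfa had means of -1.61 ± 0.95 with LPS (SD, n = 2) and -1.60 ± 0.73 without (SD, n = 4), and Pdgfb had -1.56 ± 1.94 and -1.63 ± 0.61, with adjusted p between 0.126 and 0.484. Hbegf, an EGF receptor ligand, was at -1.92 ± 1.32 with LPS (SD, n = 2) and 0.67 ± 1.49 without (SD, n = 4).

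Among markers of other cells that an adherent harvest could hold, neutrophil markers lay above 0 in untreated TAM against PEC (9 of 12 measured, 7 of 9 above 0, median 0.95, array medians from 0.07 to 2.38) and so did those of fibroblasts and stroma (12 of 19 measured, 9 of 12 above 0, median 0.41, array medians from -0.21 on TAM-3, with 5 of 12 above 0, to 1.35 on TAM-8). The medians were 0.19 for endothelial cells (7 of 11), -0.22 for T and NK cells (9 of 16), -0.55 for B and plasma cells (8 of 12), -0.41 for mast cells and eosinophils (3 of 10), 0.15 for epithelial and mesothelial cells (8 of 13) and 0.42 for erythroid cells and platelets (5 of 10). One marker of these lists passed, Sdc1 of the B and plasma cell list, a proteoglycan that activated macrophages carry too (-3.21, adjusted p = 0.012). The part of these cells in the values of Vegfa, Slc2a1 and Tgfb1 was not tested.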

How the data were processed

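The values deposited by the authors are log ratios, 1 for each feature on each of 10 spotted cDNA arrays, and were treated as log2. The sources used here do not give the log base, the dyes, the image analysis or the normalization. The value farthest from 0, 11.687, would be a 119014-fold ratio as a natural log, more than a 16-bit scanner can hold (65535), and is 3297-fold as log2. Array medians as deposited lay between -0.199 and 0.022 and scaled median absolute deviations between 0.688 and 1.165. Intensities were not used here, so dim spots could not be filtered, and precision is limited by the few arrays.

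Features were named with the platform annotation (7486 with 1 symbol, 483 with several, 1627 with none). Features of 1 gene were averaged, which left 8905 genes and unnamed features. Each comparison was a mean in 1 limma fit (limma 3.58.1 under R 4.3.3, functions lmFit and eBayes) over all 10 arrays, with 6 residual and 3.841 prior degrees of freedom. Two-sided p-values had a Benjamini-Hochberg adjustment over all 8905 within a comparison, with a threshold of 0.05. The fit was tested on simulated data. Pooling assumes equal spread across comparisons. Alternatives were other fits, channel-order terms, scalings, prints, features singly and left-out arrays, and 4 added after the data were seen (the loop with a channel-order term, the mean of both TAM and PEC comparisons, the channel-order coefficient and the median of the feature place taken off). The members and the gene lists were chosen with earlier results of these data known. Named genes were the 3 members, a panel from the lists, list genes past the test and the 3 genes of most like pattern per member.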

Additional observations from a re-analysis of the deposited data

Results flagged for a closer look

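In the group of 4 arrays of untreated TAM against PEC, single arrays lay far from the others for 2 of 31 items checked (the 3 members, 2 single Vegfa features and 26 further genes), where chance marks about 1 group in 20. Ldha on TAM-3 stood at 0.84, with the other 3 arrays from -0.42 to -0.24. Smad4 was at 0.88 on TAM-2R, an array with exchanged channels, against -0.41 to -0.34 on the other 3.

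For 8 of the 29 genes checked, a panel chosen with earlier results of these data known, both arrays of LPS in TAM lay below 0 and both of LPS in PEC above 0, as did 8.84% of all genes and features. The difference of the responses, TAM minus PEC, was -1.58 for Slc2a1, -1.44 for Aldoa, -2.21 for Ldha, -0.55 for P4ha1, -1.57 for Pdgfa, -2.09 for Pdgfb, -0.75 for Thbs1 and -1.17 for Vegfc. Each was tested as a contrast in the limma fit. The adjusted p was 0.719 for Slc2a1, Aldoa, Ldha and Pdgfb, 0.75 for Pdgfa, 0.969 for Thbs1, 0.993 for Vegfc and 0.998 for P4ha1. TAM-16 was near 0 for Slc2a1 (-0.06) and Ldha (-0.11), so their side in TAM rests on TAM-trial. Both values lay above the median of all features on TAM-16, -0.199. With place medians taken off, Slc2a1 was above 0 on TAM-16, at 0.35.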

How the results depend on the processing

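Of 568 recomputed values of the 3 genes and of Bhlhe40, Id2 and Id3, 462 kept direction and side of the threshold, 27 turned sign, 74 lost a call, 4 gained one and 1 with no test moved, and the causes were not tested. The 568 hold 240 fits that left out 1 array, and an array of another comparison cannot move a mean. A result without a call in the main fit had none to lose, so the 462 do not measure how firm the calls were. The untreated call of Slc2a1 was lost with the exchanged arrays unturned (-0.95), a channel-order term (-2.23), one per print (-2.16), scaled arrays (-1.81), its own arrays only (-2.13), print v3p6 only (-2.25), trended and robust variance (-2.13) and the loop with a channel-order term (-2.00), and its value on the v9p2 array was -1.76. With LPS, Slc2a1 gained a call in the loop (-2.80), with scaled arrays (-3.10), in the loop with a channel-order term (-2.82) and with place medians taken off (-2.64), and turned to 0.29 with the exchanged arrays unturned. Its mean of both comparisons lost the call unturned (-0.33), with a channel-order term per print (-2.28), within v3p6 (-2.49) and with trended variance (-2.28), and the difference with and without LPS turned to 1.25 unturned. The channel-order term, one per print, and the loop with it turned untreated Tgfb1 (-0.07, -0.20 and -0.19), Tgfb1 after LPS in TAM (-0.26, -0.50 and -0.49), Vegfa after LPS in PEC (0.33, 0.12 and 0.15) and Vegfa after LPS in TAM (0.12, 0.11 and 0.40). Untreated Tgfb1 was -0.39 with place medians taken off. Unturned arrays turned Tgfb1 with LPS (1.75), its mean of both (1.42) and its difference with and without LPS (0.66), and it was 0.39 on the v9p2 array. The LPS difference of Vegfa was 0.39 in the loop and 0.25 with a channel-order term added, and feature 648089_1 after LPS in PEC was 0.11.

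Leaving out 1 array gave means from -2.25 to -2.05 for untreated Slc2a1, -2.43 to -2.13 for its mean of both, -0.34 to 0.13 for Vegfa after LPS in PEC, -0.44 to 0.03 for its LPS difference, -3.11 to 0.39 for Tgfb1 in TAM against PEC with LPS, -1.61 to 0.39 for its LPS difference and -1.26 to 0.49 for its mean of both. Such a value moves only when an array of its own comparisons is left out. Calls over all genes ran from 6 (without TAM-8) to 24 in untreated TAM against PEC, 1 to 85 (without PEC1) after LPS in PEC, 0 to 3 (without TAM-16) after LPS in TAM, 3 to 11 in TAM against PEC with LPS, 0 to 47 (without PEC1) for the difference of LPS responses and 0 to 2 for that of TAM and PEC with and without LPS. The main count of 41 in untreated cells was 0 unturned, within v3p6 and with trended variance, 2 on its own arrays, 11 with a channel-order term per print, 12 scaled, 17 with a channel-order term and 26 with the loop and that term. The count of 1 after LPS in PEC was 2 unturned, 28 in the loop, 3 scaled, 5 with place medians taken off and 0 on its own arrays, within v3p6, with trended variance and in the loop with a channel-order term. That of 0 after LPS in TAM was 1 scaled. That of 6 with LPS was 137 in the loop, 131 in the loop with a channel-order term, 81 scaled, 20 over named genes, 16 with place medians taken off, and 0 unturned, with a channel-order term per print, on its own arrays, within v3p6 and with trended variance. No paired analysis was possible because the array names of the labels do not run across the comparisons. No alternative changes the limit set by 2 or 4 arrays per comparison, and signal over background was not used here.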
